A study of Mus musculus with 2 samples.

Results

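Sfrp1, Sfrp2, Frzb and Dkk3 encode secreted proteins of the Wnt antagonist families, and Axin2, Lef1 and Nkd1 are genes that canonical Wnt signalling is known to switch on. These 7 genes were followed across progenitor and neuron classes, gated by marker genes, in 2 single-cell RNA libraries of embryonic mouse telencephalon. They were chosen by symbol and by no rule on measured values, though earlier results of these data were known at the choice. Each symbol matched 1 row in each library. Thus 7 of the 33247 genes listed in the series (28001 in the library of septal explants and 32286 in that of the telencephalic vesicle) belonged to the set. The study concerned the transcription factor Dbx1 and the adhesion molecule Pcdh8 in the developing cerebral cortex, and the libraries hold unmanipulated tissue in which the expression of any gene can be placed.

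The septal explant library was prepared from tissue around the septum of 8 E11.5 PGKCre;Rosa26YFP embryos and 4 E12.5 Dbx1Cre;Rosa26tdTomato embryos, each from 2 litters, with the v2 chemistry and about 10000 input cells. PGKCre is active from the early embryo, so that YFP marks cells broadly, whereas Dbx1Cre switches on tdTomato only in cells that have expressed Dbx1 and their progeny. The telencephalic vesicle library was prepared from 3 wild-type embryos of 2 litters, labelled E12 and aged E11.5 to E12 by the study's methods, with the v3.1 chemistry and about 20000 input cells. All embryos were on the C57BL/6J strain, and the labels list the genotype of both libraries as wild-type. Embryos of a library were pooled before capture and cannot be told apart, and in the septal explants age and reporter genotype go together. With 1 library of each kind there was no replicate, so no test was made: levels are given in CPM, the unique molecular identifiers (UMIs, distinct mRNA molecules) of a gene over all UMIs of the same cells, scaled to 1000000, with exact 95% Poisson intervals in brackets, and ratios with exact 95% intervals. These intervals cover counting error only. Levels were not compared between the libraries, which differ in chemistry and counting software, nor between genes.

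Wnt ligands bind Frizzled and Lrp receptors at the cell surface, which stabilises beta-catenin and lets it act in the nucleus with factors of the Tcf/Lef family. Sfrp proteins carry a Frizzled-like domain and can bind Wnt ligands outside the cell, whereas Axin2 and Nkd1 act inside it as feedback inhibitors, which makes their mRNA a common readout of signalling. In the telencephalon the cortical hem, at the dorsomedial edge of the pallium, is a known source of Wnt and Bmp ligands, and the antihem, at the pallial-subpallial boundary, is known for secreted Wnt antagonists such as Sfrp2.

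After removal of cells with outlying mitochondrial content and of marked doublets, 5384 of 5827 barcodes of the septal explants remained (median 12868.5 UMIs), and 11758 of 14283 of the vesicle (median 9058.5). A single barcode sequence occurred in both libraries. Cells were placed on a progenitor or neuron side by pan-progenitor and pan-neuronal genes and then gated by regional genes, none of them a member: Lmx1a and Msx1 for the hem, Emx1 and Emx2 for dorsal pallial, Fgf8, Fgf17, Fgf18, Zic1 and Zic4 for septal, Nkx2-1 for MGE-type and a gate that required Gsx2 for LGE-type progenitors, Eomes for basal progenitors, Reln for Cajal-Retzius neurons, Tbr1 with Neurod2, Neurod6 and Slc17a6 for pallial glutamatergic neurons, and Gad1, Gad2 and Dlx genes for GABAergic neurons. Of the kept cells, 385 septal and 1065 vesicle cells lay within 0.25 log2 units of the progenitor threshold, and 97 and 304 within that distance of the neuronal one. Genes held back from the gates were read as a check. Hem progenitors of the vesicle (398 cells) held 1391 CPM of Rspo2, against 69.0 CPM in dorsal pallial progenitors, and Ttr, a choroid plexus gene, stood at 107 CPM in them. Septal progenitors (324 cells) had the highest Six3 level of the gated classes at 264 CPM, and progenitors gated by Nkx2-1 (MGE-type, 821 cells) the highest Shh level among apical progenitors at 78.5 CPM, but Lhx8, another gene of that region, stood at only 1.72 CPM in them. The antihem gate (614 cells) held 15.4 CPM of Dbx1, a gate gene. Of its held-back genes, Pax6 stood at 190 CPM, against 161 CPM in dorsal pallial progenitors, but Neurog2 was lower (42.0 against 66.3 CPM). Six3, a check gene of the septal and LGE-type gates, stood at 103 CPM in it and at 16.6 CPM in dorsal pallial progenitors. Meis2, another check gene of the LGE-type gate, stood at 987 CPM in it, 422 in dorsal pallial and 1130 in LGE-type progenitors. Gsx2, which the LGE-type gate requires, stood at 10.4, 0.507 and 131 CPM in the same order. The class is therefore called here by its gate of Dbx1, Fgf7, Tgfa, Nrg1 and Nrg3, and its place at the pallial-subpallial boundary was not shown. Antihem progenitors below are cells that met this gate and no more. The hem gate was given before the dorsal pallial one, so that 182 of the 398 vesicle hem cells also met the latter. Cells otherwise meeting several gates (898 and 1259) and cells meeting none (1334 and 4530) were left out of the classes. The vesicle cells meeting several gates had a median of 26197 UMIs, against medians of 8843 to 13055 in the apical classes. Apical levels of the vesicle therefore come from shallower cells, and the effect of this was not tested. Basal progenitors of the vesicle, with a median of 26537 UMIs, were deeper than any apical class, and the deepest cells are those most able to meet a minimum of UMIs. The Eomes gate went before the regional ones, so this class can include cells of hem type. It held 39.6 CPM of Lmx1a, 201 of Rspo2 and 51.1 of Bmp6, against 4.40, 69.0 and 11.7 CPM in dorsal pallial progenitors. The part of such cells in its Dkk3 and Axin2 levels was not tested.

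The members differed widely in abundance. Among the kept cells, Sfrp1 was found in 60.3% of septal explant and 50.9% of vesicle cells, and Lef1 in 31.4% and 37.6%. Frzb (3.77% and 3.14% of cells) and Dkk3 (4.22% and 6.17%) were sparse, with 331 and 305 UMIs in the septal explants and 577 and 1191 in the vesicle, so their class levels rest on few molecules. Erythroid cells of the vesicle, which should lack these genes, had a Sfrp1 UMI in 6.25% and a Lef1 UMI in 3.23% of cells at a median of 4838.5 UMIs, and those of the septal explants, 26 cells with a median of 29045.5 UMIs, in 42.3% and 19.2%. As levels, vesicle erythroid cells held 14.3 CPM of Sfrp1 (10.4 to 19.3), 5.67 of Lef1 (3.30 to 9.08), 4.34 of Axin2 (2.31 to 7.42) and at most 1.67 of the other 4 members.

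Sfrp1, which encodes a secreted Frizzled-related protein, lies at chr8:23411502-23449632 on the plus strand (GRCm38, GENCODE M21, 1 transcript). Its level was highest in dorsal pallial progenitors of both libraries. In the vesicle it stood at 315 CPM there (301 to 329), 259 in antihem (249 to 268), 203 in basal progenitors (195 to 212), 175 in LGE-type (163 to 187) and 117 in MGE-type progenitors (110 to 123). It was far lower at the medial edge, at 67.2 CPM in septal (59.2 to 75.9) and 41.5 CPM in hem progenitors (37.2 to 46.1). All of these neighbouring intervals were apart. The neuron classes lay lower still, from 19.8 CPM in pallial glutamatergic (16.4 to 23.6) to 30.0 in GABAergic neurons (25.9 to 34.6), and of these pallial glutamatergic, Cajal-Retzius and Tbr1-negative glutamatergic neurons did not exceed the erythroid level beyond their intervals.
In the septal explants septal progenitors stood above MGE-type ones, the reverse of the vesicle, with 499.9 CPM in dorsal pallial (488 to 512), 196 in basal (174 to 220), 185 in LGE-type (169 to 201), 112 in septal (106 to 119) and 66.0 in MGE-type progenitors (52.9 to 81.4). Basal and LGE-type progenitors did not differ beyond their intervals. Pallial glutamatergic neurons held 30.3 CPM (27.0 to 33.9) and GABAergic neurons 26.7 CPM (20.8 to 33.8), no more than the 48.0 CPM of 26 erythroid cells (33.4 to 66.8).

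Sfrp2, the second Frizzled-related antagonist of the list, lies at chr3:83766321-83774316 on the plus strand (3 transcripts), where an annotated antisense gene, Gm26771, overlaps an exon. Among the gated classes it was highest in the antihem gate of the vesicle and in LGE-type progenitors. A cluster of 505 vesicle cells, of which 180 met a gate, held more, at 169 CPM; 83 of its cells met the hem gate, and it was not taken as a class. In the vesicle its level was 71.3 CPM in antihem (66.5 to 76.4) and 66.4 CPM in LGE-type progenitors (59.1 to 74.3), 2 values whose intervals overlapped. Basal progenitors followed at 53.0 CPM (48.8 to 57.4), above dorsal pallial (37.9, 33.1 to 43.2) and septal progenitors (37.8, 31.9 to 44.5), which did not differ from each other beyond their intervals, and MGE-type (29.4, 26.3 to 32.8) and hem progenitors (28.1, 24.5 to 31.9) were lowest among progenitors. Where the antihem gate held 1 cell, in the septal explants, LGE-type progenitors were again highest at 76.3 CPM (66.3 to 87.4), before dorsal pallial (55.5, 51.7 to 59.5), MGE-type (53.1, 41.4 to 67.1) and septal progenitors (45.1, 40.9 to 49.7). Neuron classes of at least 50 cells held 2.42 to 7.09 CPM over both libraries. In the septal explants these classes lay below the 9.60 CPM of a cluster of 26 erythroid cells. Their Sfrp2 level there is thus not shown to exceed that of cells that should lack the gene.

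Frzb, the gene of Sfrp3, lies at chr2:80411970-80447625 on the minus strand (2 transcripts). Its level was highest outside the neural classes. Mesenchymal cells, gated by collagen genes, held 39.8 CPM in the vesicle (35.3 to 44.8, 426 cells) and 180 CPM in the septal explants (147 to 219, 33 cells). Dorsal pallial progenitors held 3.55 CPM in the vesicle (2.198 to 5.43), level with MGE-type progenitors (3.53, 2.51 to 4.82), and 7.47 CPM in the septal explants (6.10 to 9.05), the highest value of the undivided neural classes of at least 50 cells, though its interval overlaps that of MGE-type progenitors (3.04, 0.83 to 7.77). LGE-type progenitors held no Frzb UMI in either library, in 322 and 181 cells, where 3 UMIs would have been 0.657 and 1.1 CPM.

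Dkk3 encodes a divergent member of the secreted Dickkopf family, whose effect on Wnt signalling is known to vary between settings, and lies at chr7:112116017-112159057 on the minus strand (1 transcript). In the vesicle it was highest in hem progenitors at 30.0 CPM (26.4 to 34.0), and the basal progenitor class below can include cells of hem type. Basal progenitors held 15.6 CPM (13.4 to 18.1), mesenchyme 13.8 (11.2 to 16.8) and antihem progenitors 8.50 (6.89 to 10.4), while dorsal pallial (3.72), septal (2.099), MGE-type (1.72) and LGE-type progenitors (1.10) and the 4 neuron classes (1.89 to 4.73) were low and overlapped for the most part. The 11 hem cells of the septal explants held 66.0 CPM (32.9 to 118) on 11 UMIs, against 6.39 in dorsal pallial (5.13 to 7.86) and 2.07 in septal progenitors (1.24 to 3.23).

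**Figure D1:**
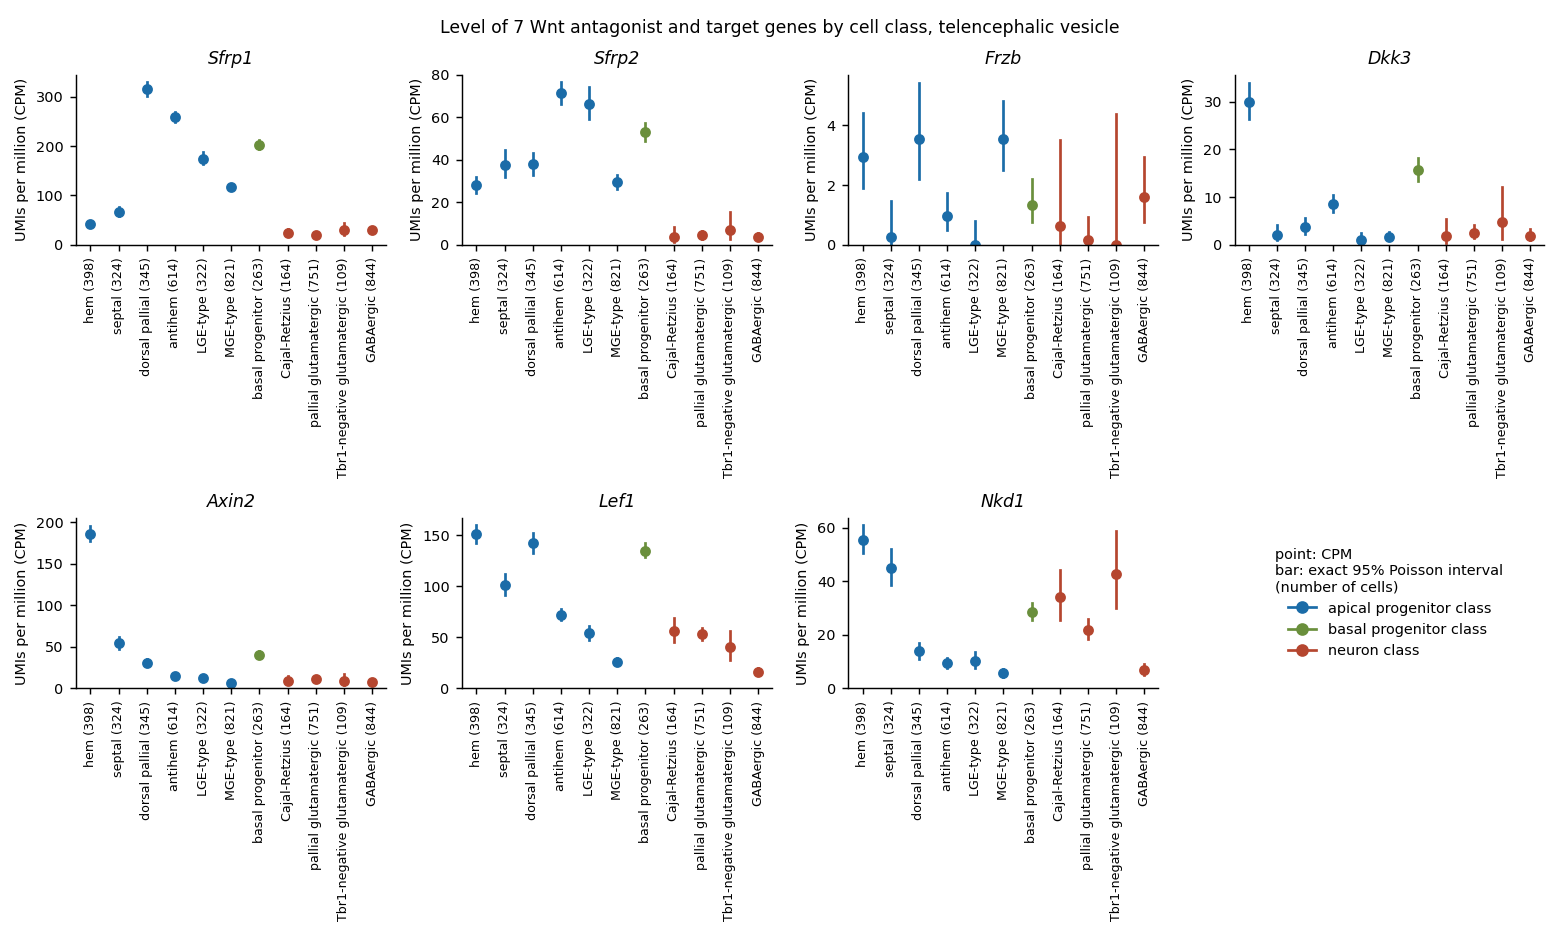
Level of each member in 11 neural classes of the telencephalic vesicle, in CPM (linear axes from 0), with points for the class sum, bars for exact 95% Poisson intervals and the number of cells beside each class name. Sfrp1 is highest in dorsal pallial progenitors (315 CPM), whereas Axin2 (186 CPM) and Dkk3 (30.0 CPM) peak in hem progenitors. Sfrp2 is highest in cells of the antihem gate (71.3 CPM), with an interval that overlaps that of LGE-type progenitors.

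Axin2 encodes a scaffold of the beta-catenin destruction complex and is a widely used Wnt target. It lies at chr11:108920349-108950783 on the plus strand (7 transcripts), with the antisense gene Gm11670 over an exon. It was highest in the hem and lowest in MGE-type progenitors. In the vesicle it stood at 186 CPM in hem progenitors (177 to 196), 54.0 in septal (46.9 to 62.0), 40.4 in basal (36.8 to 44.3) and 30.4 in dorsal pallial progenitors (26.1 to 35.2). Antihem (15.1, 13.0 to 17.6) and LGE-type progenitors (11.8, 8.89 to 15.4) followed, with overlapping intervals, and MGE-type progenitors were lowest at 5.88 CPM (4.54 to 7.49), no higher than GABAergic neurons (7.31, 5.35 to 9.75) or erythroid cells beyond the intervals. Of the septal explant classes, 11 hem cells held 179.9 CPM (121 to 257), septal progenitors 28.8 (25.4 to 32.5) and dorsal pallial progenitors 24.6 (22.0 to 27.3), the last 2 not apart. A cluster of 137 septal explant cells, of which 66 met a gate, also held much Axin2, at 127 CPM. It held 171 CPM of Nkd1, 39.1 of Dkk3 and 19.5 of Frzb. The septal class led in it with 27 cells, and it was not taken as a class. LGE-type (7.34, 4.48 to 11.3) and MGE-type progenitors (3.79, 1.23 to 8.85) were again at the low end.

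Lef1 encodes the DNA-binding partner of beta-catenin and is itself a target, at chr3:131110471-131224356 on the plus strand (8 transcripts, with the antisense gene Gm43352 over an exon and Gm42449 inside an intron on the same strand). In the vesicle it did not separate the hem from the dorsal pallium: hem progenitors held 151 CPM (143 to 160), dorsal pallial 142 (133 to 152) and basal progenitors 135 (128 to 142), each overlapping its neighbour. Septal progenitors followed at 101 CPM (91.4 to 112), antihem at 72.1 (67.2 to 77.2) and LGE-type at 54.1 (47.6 to 61.3), level with Cajal-Retzius (55.9) and pallial glutamatergic neurons (52.7), and MGE-type progenitors held 26.0 (23.1 to 29.2). Endothelial cells, 30 in number, held more than any neural class at 179.5 CPM (156 to 206). Dorsal pallial progenitors of the septal explants were highest at 45.6 CPM (42.1 to 49.3), before septal progenitors at 35.5 (31.8 to 39.6), and the 11 hem cells held only 3 UMIs (18.0 CPM, 3.71 to 52.6).

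Nkd1 encodes an inhibitor of Dishevelled, at chr8:88521354-88594884 on the plus strand (3 transcripts, with Gm45496 in an intron on the same strand). Unlike the other members, it stood higher in pallial glutamatergic neurons than in dorsal pallial progenitors. Among the neural classes of the vesicle, hem (55.5 CPM, 50.5 to 60.9) and septal progenitors (44.9, 38.4 to 52.1) were highest, with overlapping intervals. Tbr1-negative glutamatergic neurons (42.6, 29.8 to 58.9) and Cajal-Retzius neurons (33.9, 25.5 to 44.3) came next, before basal progenitors (28.4, 25.3 to 31.7), pallial glutamatergic neurons (21.9, 18.3 to 26.0) and dorsal pallial progenitors (13.7, 10.9 to 17.0). LGE-type (10.1), antihem (9.39), GABAergic (6.67) and MGE-type cells (5.52) were lowest. Basal progenitors of the septal explants held 174 CPM (153 to 197), the 11 hem cells likewise 174 (117 to 250), septal progenitors 87.3 (81.4 to 93.5), pallial glutamatergic neurons 69.5 (64.5 to 74.9), Cajal-Retzius neurons 55.3 (45.6 to 66.4) and dorsal pallial progenitors 42.1 (38.8 to 45.7). MGE-type progenitors were lowest at 11.4 CPM (6.37 to 18.8), which did not exceed the erythroid value of 12.35 (5.64 to 23.4). Mesenchyme was high in both libraries, at 59.6 CPM in the vesicle (54.0 to 65.6) and 209 CPM in the septal explants (173 to 251). Some clusters led by pallial glutamatergic neurons held more than any neural class of their library. In the vesicle, a cluster of 191 cells with 74 such neurons held 116 CPM. In the septal explants, clusters of 230, 105 and 160 cells, with 25, 71 and 65 such neurons, held 269, 253 and 216 CPM. Others so led were lower, with 20.96 CPM in 212 septal explant cells (186 such neurons) and 9.83 CPM in 632 vesicle cells (472). These levels include cells outside the class.

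**Figure D2:**
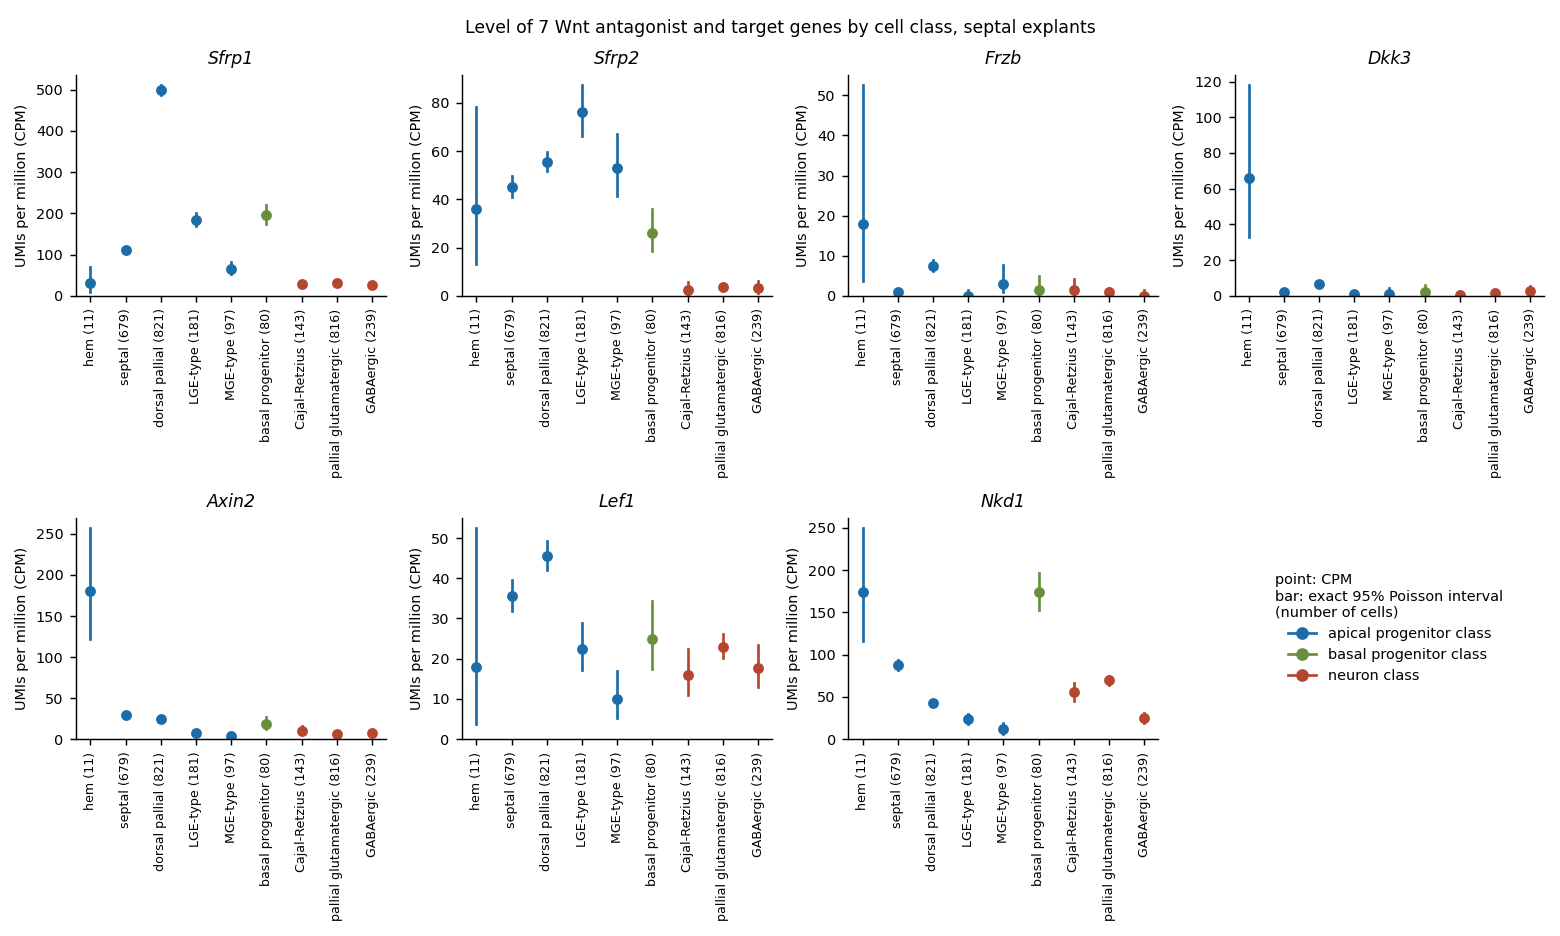
Level of each member in 9 neural classes of the septal explants, in CPM (linear axes from 0), with points for the class sum and bars for exact 95% Poisson intervals; the hem class holds 11 cells. Sfrp1 is highest in dorsal pallial progenitors (499.9 CPM) and Nkd1 is as high in basal progenitors (174 CPM) as in the hem cells (174 CPM).

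Promoter windows are shown for the 3 target genes, since Tcf/Lef factors, through which beta-catenin acts, bind DNA at a known motif. RefSeq (GRCm38.p6) lists a window for 5 of the 7 members, 8 windows in all, and those of Sfrp1 and Dkk3 were not used here. The 250 bases before the start were searched on both strands for 4 Tcf/Lef heptamers: CTTTGAA or CTTTGAT with an A as the sixth base, and CTTTGTA or CTTTGTT with a T there. At least 1 of them occurs in 4874 of 32851 such windows of the genome (14.8%), and 1 of the 8 member windows holds one, that of the fourth start listed for Lef1. There, CTTTGTA stands on the opposite strand, 147 to 141 bases before the start, and is shown in capitals as it reads on the Lef1 strand. The windows are Axin2 chr11:108920099-108920348, Nkd1 chr8:88527383-88527632, the first Lef1 start chr3:131110047-131110296 and the fourth Lef1 start chr3:131156044-131156293, all on the plus strand and written 5′ to 3′. By the GENCODE positions given above, the Nkd1 window and that of the fourth Lef1 start lie inside the genes. They are not the bases before those gene starts.
Axin2: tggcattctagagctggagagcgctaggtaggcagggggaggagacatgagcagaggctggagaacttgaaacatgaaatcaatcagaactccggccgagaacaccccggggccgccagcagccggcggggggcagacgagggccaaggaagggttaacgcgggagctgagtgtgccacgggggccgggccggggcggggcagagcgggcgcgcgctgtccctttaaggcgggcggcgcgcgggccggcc
Nkd1: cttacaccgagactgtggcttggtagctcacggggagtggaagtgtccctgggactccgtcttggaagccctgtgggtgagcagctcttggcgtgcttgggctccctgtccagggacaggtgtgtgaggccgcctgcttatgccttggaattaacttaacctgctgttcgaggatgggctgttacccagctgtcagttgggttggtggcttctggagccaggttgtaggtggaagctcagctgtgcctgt
Lef1 start 1: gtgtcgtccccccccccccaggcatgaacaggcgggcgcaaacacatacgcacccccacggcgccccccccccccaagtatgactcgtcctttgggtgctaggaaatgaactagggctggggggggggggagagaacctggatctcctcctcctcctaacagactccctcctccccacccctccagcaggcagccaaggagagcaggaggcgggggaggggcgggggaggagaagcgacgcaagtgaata
Lef1 start 4: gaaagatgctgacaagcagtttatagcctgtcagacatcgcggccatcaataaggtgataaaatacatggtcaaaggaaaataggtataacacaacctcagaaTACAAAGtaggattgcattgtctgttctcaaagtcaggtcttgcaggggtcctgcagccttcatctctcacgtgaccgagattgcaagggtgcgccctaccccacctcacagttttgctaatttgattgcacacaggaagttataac
The window of Axin2 has a GC content of 69.2%, that of Nkd1 58.4%, and those of the first and the fourth Lef1 start 66.4% and 44.8%. A match is a description of these letters only, and counts taken at the 3′ end do not tell which start was used.

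Hem progenitors were compared with dorsal pallial progenitors first, since the hem borders the dorsal pallium and is the ligand source. A gene counted as higher or lower where the ratio was at least 2-fold and both classes together held at least 50 UMIs. The comparisons of hem, septal, antihem, LGE-type, MGE-type and neuronal cells all share the dorsal pallial progenitors of their library, apart from that of GABAergic neurons. In the vesicle, 3 of the 7 members were higher in the hem, against 6.76% of the 11279 genes tested, and 1 was lower, against 3.08%. Dkk3 was 8.07-fold higher (5.21 to 13.1), Axin2 6.12-fold (5.24 to 7.18) and Nkd1 4.05-fold (3.19 to 5.20). The log2 ratio of Dkk3, 3.01 here, was 2.09 in thinned cells, 2.40 with gates raised by 1 UMI and 2.02 without cells that met both gates. Sfrp1 was lower in the hem by 7.59-fold (6.76 to 8.55). Sfrp2 was 1.35-fold lower (1.12 to 1.63), Lef1 had a ratio of 1.06 (0.97 to 1.16), and Frzb had 45 UMIs in both classes together, under the minimum. The 3 target genes thus lay on different sides of the 2-fold limit, with Lef1 level between classes in which Axin2 and Nkd1 were apart. The median log2 ratio of the 7 members was 0.09, beside 0.08 over all genes tested.

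The hem gate of the septal explants held 11 cells with 166727 UMIs, and 4 members were higher in it, against 14.1% of 9875 genes, and 2 lower, against 17.8%; with so few cells, many genes pass 2-fold in either direction. Axin2 was 7.33-fold higher (4.87 to 10.7), Dkk3 10.3-fold (4.98 to 19.4) and Nkd1 4.13-fold (2.74 to 5.99), and Sfrp1 was 16.7-fold lower (7.14 to 51.4). Frzb (2.41-fold higher, 0.49 to 7.24) and Lef1 (2.53-fold lower, 0.86 to 12.3) passed 2-fold on 3 hem UMIs each, and their intervals include no difference. With gates raised by 1 UMI (6 hem cells) the log2 ratio of Dkk3 was 0.42 in place of 3.37, under 2-fold, and it was 1.58 without cells that also met the dorsal pallial gate (3 hem cells), where that of Nkd1 was 1.18 in place of 2.05. With hem cells chosen by Wnt ligands and Lmx1a (42 cells) Sfrp1 stood at -2.34 in place of -4.06, and Lef1 at -0.04. Of the 11 cells, 10 carried YFP.

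The hem class of the vesicle was not uniform in Dkk3. In 63 hem cells with a Ttr UMI, Dkk3 stood at 6.27 CPM (2.71 to 12.4), against 34.4 CPM (30.2 to 39.1) in 335 without one, which is 5.49-fold lower (2.74 to 12.9). Axin2 went the other way by a small amount, with 224 CPM (199 to 252) in cells with a Ttr UMI and 179 CPM (169 to 189) in those without. Sfrp1 (44.7 and 40.9 CPM), Nkd1 (56.5 and 55.3 CPM) and Lef1 (134 and 154 CPM) had overlapping intervals. The 182 hem cells that also met the dorsal pallial gate of Emx1 and Emx2 held 39.6 CPM of Dkk3 (34.2 to 45.5), against 15.1 CPM (11.1 to 20.03) in the 216 that did not; their Sfrp1 level was 44.4 CPM (38.8 to 50.7), close to that of the others (36.8, 30.5 to 44.1) and well below dorsal pallial progenitors. These cells were deeper, with a median of 19927.5 UMIs against 11104. Cells with and without a Ttr UMI were of like depth (medians of 12449 and 13070 UMIs). Both splits were made after the class levels had been seen.

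Other genes of the pathway, from a list in 4 groups chosen for their roles, were read in the same comparison. Of 13 ligands and agonists with at least 50 UMIs in the vesicle (24 listed), 9 were higher in the hem and 1 was lower. Rspo2, an R-spondin that strengthens Wnt signalling, was 20.2-fold higher (18.3 to 22.3), and the ligands Wnt3a and Wnt9a were 18.7-fold (12.6 to 29.2) and 12.7-fold higher (9.67 to 17.1). Rspo3 was 11.96-fold higher (11.2 to 12.8), whereas the ligand Wnt7a was 14.9-fold lower (6.90 to 38.4). Of 15 receptors, 4 were higher and 3 lower; of 6 other inhibitors, 3 were higher and none lower, among them the secreted antagonist Sostdc1 (15.3-fold, 7.58 to 36.0); and of 17 cytoplasmic and nuclear genes, 3 were higher and 1 lower. Sfrp1, lower in the hem, thus differed in direction from the 3 inhibitors that were higher. The septal explants gave 9 higher and 1 lower of 12 ligands and agonists, 2 and 4 of 10 receptors, 0 and 1 of 3 other inhibitors and 2 and 3 of 17 cytoplasmic and nuclear genes.

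**Figure D3:**
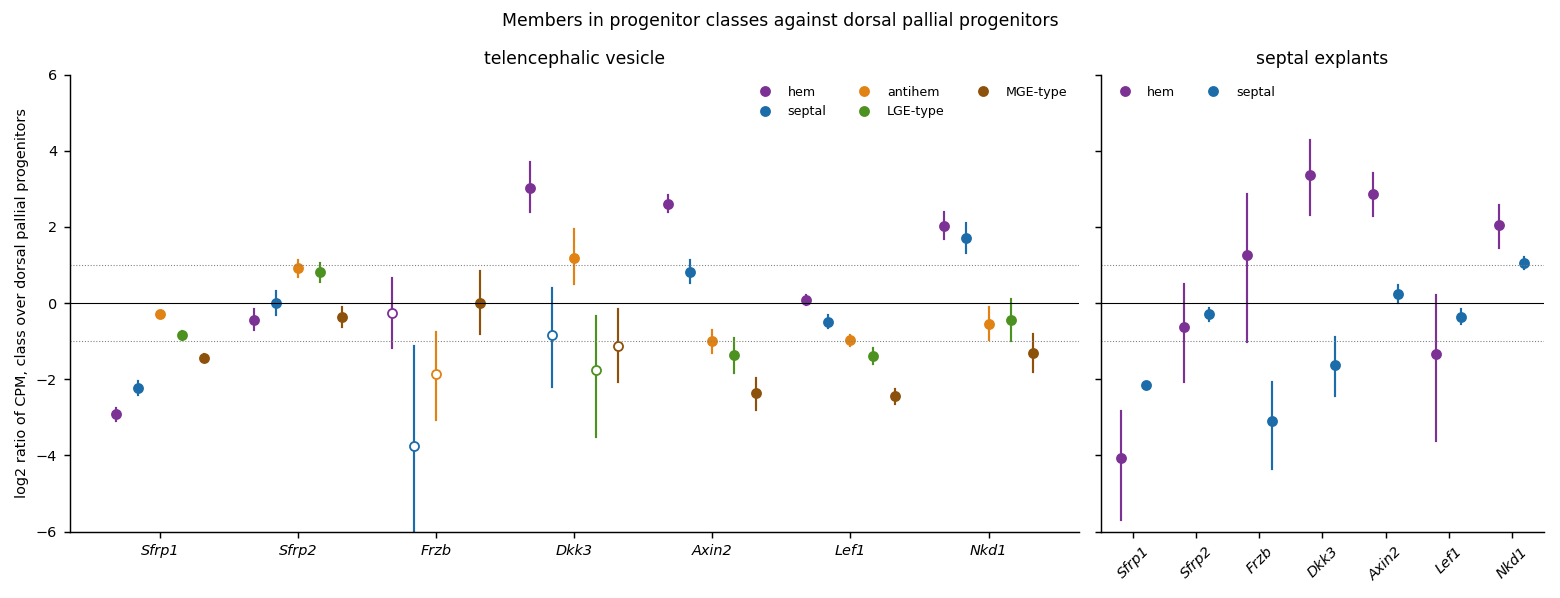
Log2 ratio of CPM of each member in progenitor classes over dorsal pallial progenitors, in the telencephalic vesicle (left) and the septal explants (right), with points for the ratio, bars for exact 95% intervals (cut at -6), dotted lines at 2-fold and open points for genes under 50 UMIs; ratios against a class without a UMI are not drawn. Axin2 lies at 2.61 in hem and at -2.37 in MGE-type progenitors of the vesicle, and Sfrp1 lies below 0 in every class.

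Medial dorsal pallial progenitors, those with a UMI of the medial ligand gene Wnt8b, were compared with the other dorsal pallial progenitors to follow the members within the pallium. In the vesicle (163 and 182 cells) no member passed 2-fold in either direction, against 1.21% of 9270 genes higher and 0.658% lower. Axin2 was closest, with 40.7 CPM in medial (33.6 to 48.7) and 20.7 CPM in other cells (15.9 to 26.5), a 1.96-fold difference (1.43 to 2.71). Lef1 was 1.26-fold higher in medial cells (1.10 to 1.45), and Sfrp1 was 1.31-fold lower (1.19 to 1.43). Nkd1 (16.3 and 11.2 CPM) and Sfrp2 (33.7 and 41.8 CPM) had overlapping intervals, and Dkk3 and Frzb were under 50 UMIs.
The same split of the septal explants gave 345 medial and 476 other cells, read as levels only. There Nkd1 stood at 65.6 CPM in medial (59.3 to 72.3) and 23.6 CPM in other cells (20.3 to 27.2), Lef1 at 64.1 (57.9 to 70.7) and 30.9 (27.1 to 35.1), and Axin2 at 33.9 (29.5 to 38.8) and 17.1 (14.3 to 20.3). Dkk3, at 11.03 (8.57 to 14.0) and 2.70 CPM (1.67 to 4.13), and Frzb, at 10.7 (8.28 to 13.6) and 4.89 (3.46 to 6.71), were also higher in medial cells. Sfrp1 was the reverse, with 398 CPM in medial (382 to 414) and 581 CPM in other cells (564 to 598). A Wnt8b UMI is more likely to be seen in a deeper cell, and medial cells were slightly deeper here (median 16714 against 15353.5 UMIs) but not in the vesicle (11152 against 11808); the part of depth in these differences was not tested. This split of the septal explants was made after the other levels had been seen.

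Septal progenitors, gated by Fgf8 and Fgf17, shared the low Sfrp1 level with the hem. In the vesicle this class held more of the hem check genes than dorsal pallial progenitors. Rspo2 stood at 183 CPM, Rspo3 at 425 and Bmp6 at 73.2, against 69.0, 153 and 11.7 CPM, while Lmx1a was close (6.03 and 4.40 CPM). For the septal explants Rspo2 was 10.2 and 8.69 CPM and Rspo3 32.3 and 71.7 CPM in the same order. The part of hem-type cells in the septal class levels was not tested. In the vesicle, 1 member was lower than in dorsal pallial progenitors, against 2.05% of 10582 genes, and 1 was higher, against 4.84%: Sfrp1 was lower by 4.69-fold (4.11 to 5.36) and Nkd1 higher by 3.28-fold (2.50 to 4.32). Axin2 was 1.78-fold higher (1.45 to 2.18) and Lef1 1.40-fold lower (1.24 to 1.59). For septal progenitors of the septal explants, 3 members were lower, against 2.38% of 10905 genes, and 1 was higher, against 5.93%. Sfrp1 was lower by 4.45-fold (4.17 to 4.76), Frzb by 8.58-fold (4.199 to 20.4) and Dkk3 by 3.09-fold (1.87 to 5.38), and Nkd1 was higher by 2.07-fold (1.86 to 2.31). With an axis threshold of 0 the log2 ratio of Nkd1 was 0.99 in place of 1.05, just under the limit, and by whole clusters those of Frzb and Dkk3 were -4.12 and -2.85 in place of -3.10 and -1.63; in thinned cells that of Frzb was -5.21. Axin2 had a ratio of 1.17 (0.996 to 1.38) and Sfrp2 was 1.23-fold lower (1.09 to 1.39). Sfrp1 and Nkd1 therefore moved the same way in both libraries, each read within its own library.

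The antihem gate of the vesicle was next, since the antihem is a known site of secreted antagonists, though the place of these cells was not shown. Against dorsal pallial progenitors, 1 member was higher, against 3.79% of 11482 genes, and 1 was lower, against 1.64%. Sfrp2 was 1.88-fold higher (1.62 to 2.19), just under the 2-fold limit, and Dkk3, at 2.29-fold (1.43 to 3.82), just above it. Axin2 was lower by 2.01-fold (1.62 to 2.49) and Lef1 by 1.97-fold (1.79 to 2.17), so that the limit passes between these genes and their calls turn on it. The log2 ratio of Dkk3, 1.19 here, ranged from 0.15 in thinned cells to 2.53 with Dbx1 alone as the gate (45 cells), and that of Axin2 passed under 2-fold with Dbx1 alone (-0.66) and with an axis threshold of 0 (-0.92). Sfrp1 was 1.22-fold lower (1.15 to 1.29) and Nkd1 1.46-fold lower (1.08 to 1.97). Of the rest of the pathway, 5 of 12 ligands and agonists were lower and none higher, among them Wnt9a (11.45-fold, 5.61 to 26.4) and Rspo3 (2.79-fold, 2.52 to 3.10). Of 13 receptors 2 were higher and 2 lower, none of 4 other inhibitors passed, and 2 of 18 cytoplasmic and nuclear genes were lower, among them the target gene Sp5 (9.64-fold, 5.99 to 16.2).

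Subpallial progenitors of the vesicle had the lowest Axin2 and Lef1 levels of the apical progenitors, though for Axin2 the intervals of LGE-type and antihem progenitors overlapped. In LGE-type progenitors, gated by Gsx2, 2 members were lower than in dorsal pallial progenitors, against 2.28% of 10521 genes, and none was higher, against 2.66%. These were Axin2, by 2.57-fold (1.89 to 3.56), and Lef1, by 2.62-fold (2.28 to 3.04), with a log2 ratio of -2.05 for Axin2 in thinned cells in place of -1.36, whereas Sfrp2 was 1.75-fold higher (1.47 to 2.09) and Sfrp1 1.80-fold lower (1.66 to 1.96). In MGE-type progenitors, 4 members were lower, against 3.32% of 11493 genes, and none was higher, against 5%. Axin2 was lower by 5.18-fold (3.88 to 6.98), Lef1 by 5.45-fold (4.76 to 6.25), Sfrp1 by 2.70-fold (2.51 to 2.90) and Nkd1 by 2.48-fold (1.76 to 3.52). Sfrp2 (1.29-fold lower, 1.08 to 1.53) and Frzb (ratio 0.99, 0.57 to 1.78) were close to dorsal pallial levels.

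Neurons were then set against progenitors gated for the same broad territory, and descent from these was not shown. In the vesicle, pallial glutamatergic neurons held Ebf3 (237 CPM) and Nhlh2 (372 CPM), check genes of the Cajal-Retzius gate, above the Cajal-Retzius class (222.5 and 244 CPM). Another such gene, Calb2, was lower in them (139 against 434 CPM). In the septal explants Calb2 stood at 451 and 630 CPM in these classes. In pallial glutamatergic neurons of the vesicle (751 cells), 4 members were lower than in dorsal pallial progenitors, against 17.4% of 11166 genes, and none was higher, against 16.2%. Sfrp1 was lower by 15.9-fold (13.2 to 19.3), Sfrp2 by 8.52-fold (5.70 to 13.2), Axin2 by 2.80-fold (2.1002 to 3.77) and Lef1 by 2.69-fold (2.37 to 3.07). In the septal explants (816 cells), 5 members were lower, against 14.3% of 11144 genes, and none was higher, against 17.4%. Sfrp1 was lower by 16.5-fold (14.7 to 18.6), Sfrp2 by 14.6-fold (10.5 to 20.8), Frzb by 7.47-fold (3.91 to 16.1), Dkk3 by 4.26-fold (2.45 to 7.94) and Axin2 by 3.84-fold (2.93 to 5.10), while Lef1 was lower by 1.98-fold (1.70 to 2.32). These calls kept their direction and side of the limit under the alternatives run, but log2 ratios of Sfrp1 moved from -4.05 to -3.21 and of Sfrp2 from -3.87 to -3.07 by whole clusters in the septal explants, and in the vesicle to -3.25 and -2.48 with all barcodes, from -3.99 and -3.09; Axin2 moved from -1.49 to -2.08 by whole clusters in the vesicle. Nkd1 was the exception in both, 1.60-fold higher in the vesicle (1.205 to 2.14) and 1.65-fold higher in the septal explants (1.476 to 1.84). The median log2 ratio of the 7 members was -1.49 in the vesicle, beside -0.08 over all genes tested, and -2.09 in the septal explants, beside 0.06. Among the other pathway genes, 8 of 11 ligands and agonists, 6 of 12 receptors and 5 of 16 cytoplasmic and nuclear genes were lower in vesicle neurons, against 2, 0 and 2 higher, and among 4 other inhibitors 1 was lower and 1 higher. Among septal explant neurons 7 of 12, 5 of 10, 6 of 18 and 2 of 3 were lower, and 4, 0, 3 and 1 higher, in the same order of groups. Rspo3 was higher in neurons, by 2.19-fold in the vesicle (2.02 to 2.37) and 2.31-fold in the septal explants (2.14 to 2.51).
GABAergic neurons of the vesicle (844 cells) were set against LGE-type and MGE-type progenitors together (1143 cells). Here 3 members were lower, against 15.7% of 12195 genes, and none was higher, against 13.6%. Sfrp2 was lower by 10.5-fold (7.02 to 16.6), Sfrp1 by 4.45-fold (3.83 to 5.19) and Lef1 by 2.11-fold (1.71 to 2.64). With whole clusters in place of gated cells these log2 ratios were -1.65, -1.26 and -0.19, so that the call of Lef1 was lost, as it also was with doublets kept (-0.80), with all barcodes (-0.78) and with cells of at least 2500 genes (-0.93). Axin2 (ratio 0.96, 0.67 to 1.36) and Nkd1 (0.97, 0.67 to 1.40) were low on both sides.

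To follow the members between these end points, cells of the pallial lineage were ranked from the most progenitor-like to the most neuronal, and 10 bins were cut from this ranking (2561 cells in the septal explants, 2496 in the vesicle). Eomes, the gene of the basal progenitor gate, was highest in bin 7 of both, at 485 and 593 CPM. The median log2 ratio of neuronal to progenitor genes in that bin was 2.43 and 2.30, on the neuron side of the threshold of 1. Pallial glutamatergic neurons held more Eomes (325 and 388 CPM) than basal progenitors did (262 and 136 CPM). The Eomes maximum therefore does not place an intermediate stage. In the septal explants Sfrp1 stayed at 348 CPM or above over the first 5 bins and stood at 131 in bin 6, 40.1 in bin 7 and 18.7 in bin 10, a 21.5-fold difference between the first and the last bin (16.7 to 28.2). Sfrp2 kept between 53.7 and 56.7 CPM for 5 bins and was 14.2 CPM in bin 6 and 2.71 CPM in bin 10. Axin2 was 44.1 CPM in bin 1, 20.9 CPM in bin 5 and 3.91 CPM in bin 10. Lef1 was 45.3 CPM in bin 5, 37.4 CPM in bin 7 and 10.5 CPM in bin 10, so that it was still near its progenitor level in a bin where Sfrp1 and Sfrp2 were low. Nkd1 had another course: it was 45.8 CPM in bin 3, highest in bin 6 at 178 CPM (164 to 193), and 34.0 CPM in bin 10.
In the vesicle Nkd1 had a like course, with 20.01 CPM in bin 3, a maximum of 60.2 CPM in bin 7 (49.98 to 72.0) and 7.11 CPM in bin 10, although its first bin stood at 37.9 CPM. Lef1 was highest in bin 4 at 191 CPM (182 to 201) and held 33.6 CPM in bin 10. It was 179 CPM in bin 5 and 69.2 CPM in bin 7, so that, unlike in the septal explants, it was no longer near its progenitor level there. The first vesicle bin was unlike the second for Sfrp1 (153 and 273 CPM), Axin2 (120 and 56.5 CPM) and Dkk3 (26.8 and 10.7 CPM). In that first bin, 85 of 250 cells (34.0%) were hem progenitors, against 29 (11.6%) in the second and 5 of 257 in the first bin of the septal explants. Without cells that had a UMI of the hem gene Lmx1a, the first vesicle bin held 264 CPM of Sfrp1, 31.9 of Axin2, 7.82 of Dkk3 and 16.3 of Nkd1, against 336, 25.9, 5.204 and 12.7 CPM in the second bin, so that Axin2, Dkk3 and Nkd1 no longer differed beyond their intervals, whereas Sfrp1 was still lower in the first bin (246 to 283 against 322 to 350). Sfrp2 was then further apart, at 86.1 CPM in the first (76.0 to 97.1) and 46.3 CPM in the second bin (41.3 to 51.6), against 52.6 and 41.6 CPM with all cells. Nkd1 without these cells stood at 45.6 CPM in vesicle bin 6 (37.0 to 55.6) and 40.9 CPM in bin 7 (32.2 to 51.2). With all cells these bins held 57.3 and 60.2 CPM. Cells with an Lmx1a UMI were 9.2% of bin 6 and 6.43% of bin 7. Without them Nkd1 was 56.9 CPM in the first and 177 CPM in the sixth bin of the septal explants. Its highest bin was then bin 6 in both libraries, at a lower level in the vesicle than with all cells. The part of hem-type cells in this maximum was not tested. The omission was chosen after the bins had been seen.

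**Figure D4:**
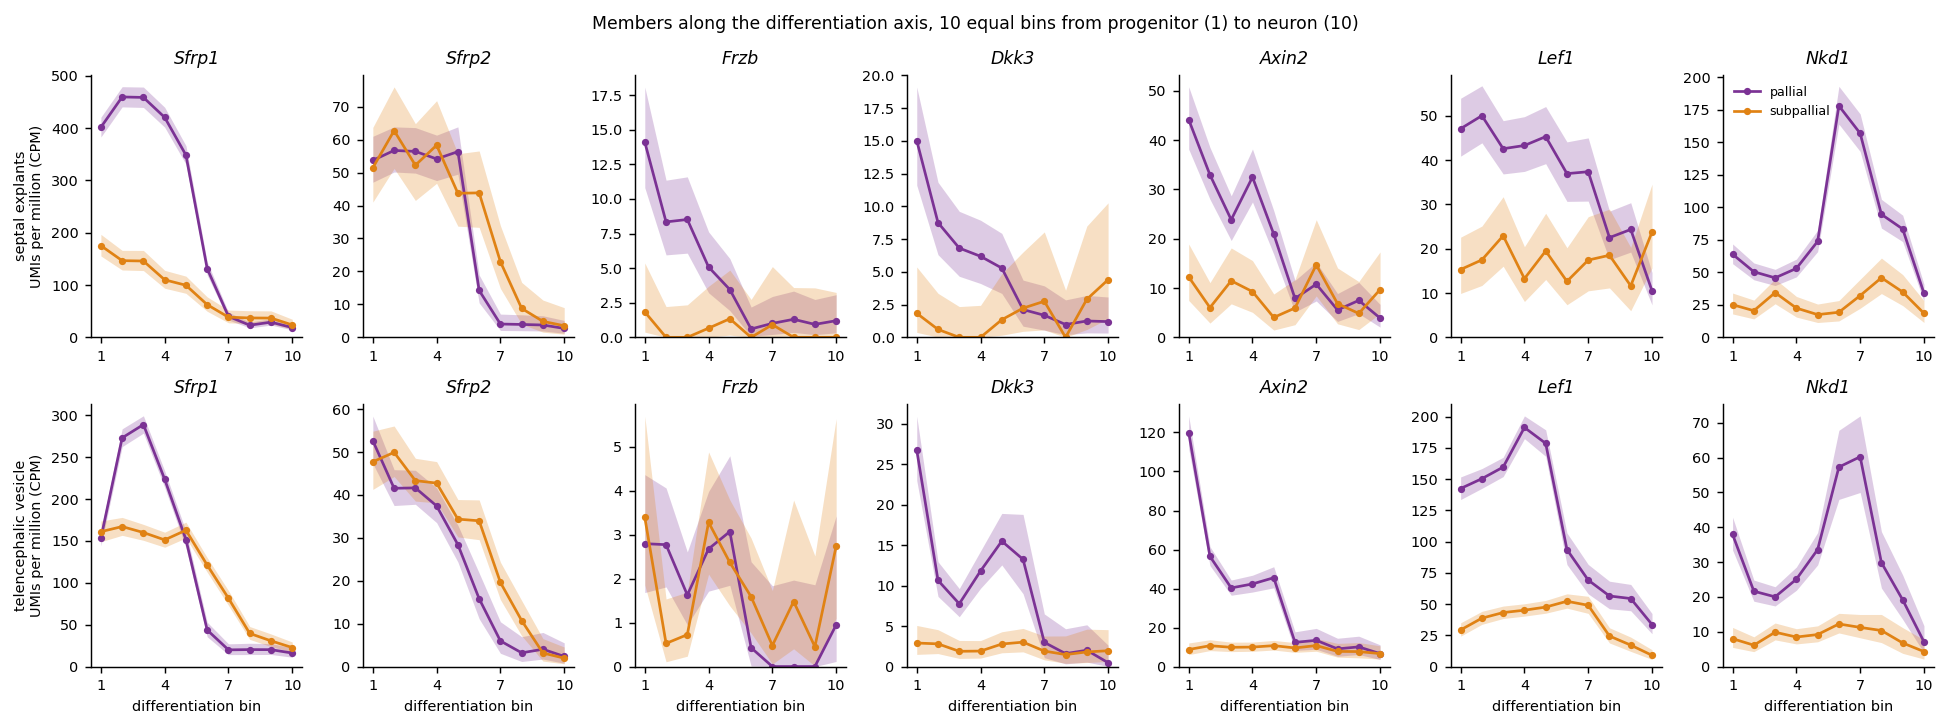
Level of each member (CPM, linear axes from 0) in 10 equal bins of cells ordered from progenitor (1) to neuron (10), for the pallial and subpallial lineages of the septal explants (top) and the telencephalic vesicle (bottom), with shaded exact 95% Poisson intervals. In the pallial lineage Sfrp1 drops from 401 to 18.7 CPM in the septal explants, while Nkd1 is highest in the middle, at 178 CPM in bin 6.

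Cells of the subpallial lineage (1031 in the septal explants and 3282 in the vesicle) gave a like decline of Sfrp1 and Sfrp2. Frzb held 3.39 CPM in the first and 2.74 CPM in the last vesicle bin, a 1.24-fold difference (0.47 to 3.63). This interval is too wide to show a decline or its absence, as was that of the pallial lineage of the vesicle (2.95-fold, 0.71 to 26.1). In the vesicle Sfrp1 was 161 CPM in the first and 22.7 CPM in the last bin, and Sfrp2 47.7 and 1.95 CPM. Lef1 was higher in the middle than at either end, with 29.3 CPM in bin 1, 52.2 CPM in bin 6 (46.7 to 58.2) and 8.99 CPM in bin 10. Axin2 stayed between 6.64 and 10.8 CPM in all bins, beside 4.34 CPM in erythroid cells. For the septal explants, Sfrp1 was 175 and 23.8 CPM in the first and last bin, and Sfrp2 51.5 and 3.52 CPM. Lef1 did not have its vesicle course there. It was 15.3 CPM in bin 1 (9.91 to 22.6), 12.6 in bin 6 (7.36 to 20.2) and highest in bin 10 at 23.8 (15.7 to 34.6).

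The share of cells with UMIs of at least 2 of the 3 target genes was read by class. It rises with the level of each gene, and no share expected from the single genes was computed. It therefore does not tell whether the genes favour the same cells. In the vesicle this share was 75.6% in hem progenitors (71.1 to 79.8, Clopper-Pearson), 39.5% in septal (34.1 to 45.1), 46.0% in medial (38.2 to 54.0) and 30.8% in other dorsal pallial progenitors (24.2 to 38.0), 19.7% in antihem (16.6 to 23.1), 16.5% in LGE-type (12.6 to 20.97) and 5.24% in MGE-type progenitors (3.82 to 6.99). Erythroid cells, at a median of 4838.5 UMIs, gave 0.81%. With each cell thinned to 3500 UMIs, and shallower cells left out, hem progenitors still led with 25.4% (21.2 to 30.0), before medial dorsal pallial (12.4%, 7.76 to 18.5) and septal progenitors (9.93%, 6.80 to 13.9), and the MGE-type share was 0.37% (0.08 to 1.07) beside 0.55% in erythroid cells. Vesicle mesenchyme gave 10.8% thinned (8.01 to 14.1). Basal progenitors changed place most, from 54.8% at full depth to 5.32% thinned. In the septal explants, thinned to 8000 UMIs, medial dorsal pallial progenitors gave 25.7% (21.1 to 30.7), septal progenitors 20.5% (17.4 to 24.0), other dorsal pallial progenitors 8.91% (6.44 to 11.9) and MGE-type progenitors 0 of 90 cells. Mesenchyme, with 31 thinned cells, gave 32.3% (16.7 to 51.4).

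**Figure D5:**
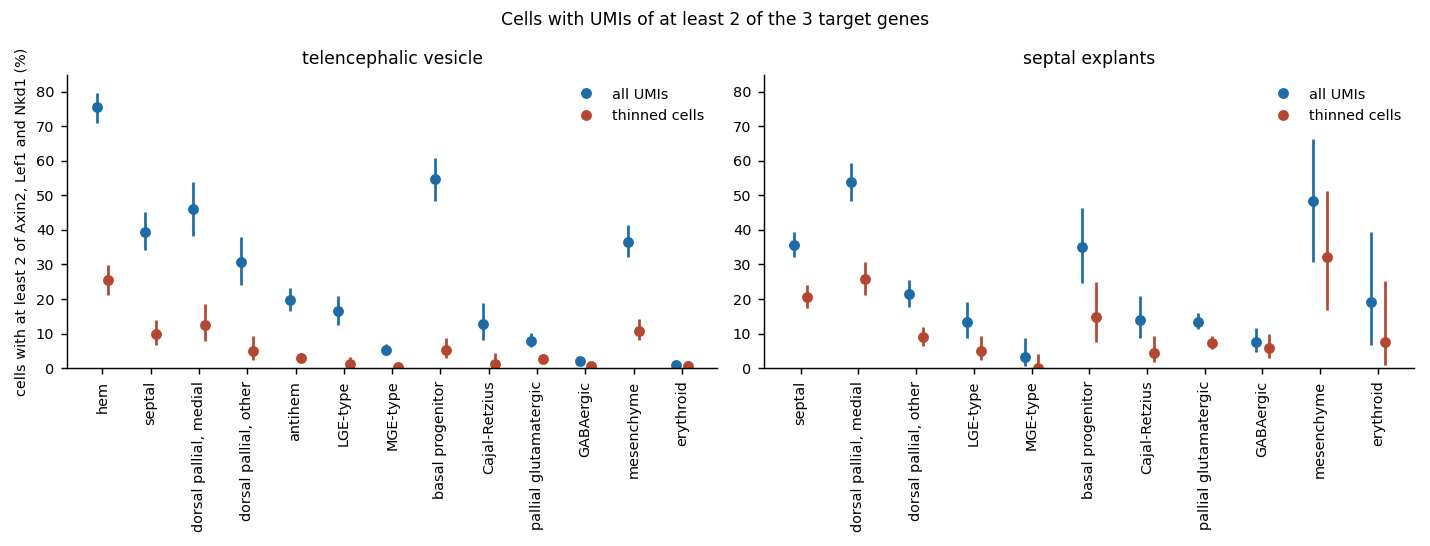
Percent of cells with UMIs of at least 2 of Axin2, Lef1 and Nkd1 by class, with all UMIs and after thinning each cell to 1 number of UMIs, with exact 95% Clopper-Pearson intervals as bars. Within the telencephalic vesicle, hem progenitors have the highest share, 75.6% with all UMIs and 25.4% after thinning, and MGE-type progenitors reach 5.24% and 0.37%. The septal explants were thinned to another number of UMIs, and mesenchyme has the highest thinned share there, 32.3%.

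Across the 11 neural classes of the vesicle, which share 1 library, Sfrp1 and Sfrp2 had a Pearson correlation of 0.89 in log2 level, Axin2 and Lef1 of 0.83, Axin2 and Dkk3 of 0.73, and Axin2 and Nkd1 of 0.59, while Sfrp1 and Nkd1 had -0.41. Across the 8 classes of the septal explants the first pair had 0.83, Axin2 and Lef1 0.86 and Axin2 and Nkd1 0.69. Neuron classes were low in both Sfrp1 and Sfrp2, and no correlation was computed without them. Among vesicle progenitors Sfrp1 was highest in dorsal pallial (315 CPM) and Sfrp2 in antihem cells (71.3 CPM). Among 10085 genes, those most like Axin2 over the vesicle classes were the folate receptor gene Folr1 (0.98), Rspo2 (0.98) and the Bmp ligand gene Bmp6 (0.97); among 7466 genes of the septal explants they were the Wnt target Sp5 (0.98), Kazn (0.90) and Wnt8b (0.90). The gene most like Sfrp1 in the vesicle was Creb5 (0.99), that most like Sfrp2 was Eefsec (0.99), that most like Lef1 was Nme7 (0.97), and that most like Nkd1 was Lrrc56 (0.94). In the septal explants Igfbp2 (0.97) was most like Nkd1. Frzb (123 UMIs over the vesicle classes) and Dkk3 gave weaker likenesses, 0.88 with Rhcg and 0.91 with Dis3l.

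Within the septal explants, progenitors with YFP alone (1796 cells) were set against those with tdTomato alone (136 cells). Both groups include progenitor-side cells that met several gates, 45 of them with tdTomato. By genotype the groups differ in age and in lineage tracing at once, so that these cannot be told apart. The reporters came from different embryos, yet 16 dorsal pallial and 11 septal progenitors, among others, held both and were left out. A single reporter UMI thus need not give the embryo of a cell. None of the 7 members passed 2-fold in either direction, against 2.7% of 11453 genes higher and 0.882% lower, and their log2 ratios lay between -0.51 and 0.73. This count depended on the reporter threshold: at 3 UMIs (1535 and 25 cells), 4 members were at least 2-fold higher with YFP. The share over all genes at 3 UMIs is not given here. With only 25 tdTomato cells, the 4 members are therefore not read as a result about the set. Among septal progenitors, the 463 cells with YFP held more Sfrp1 than the 33 with tdTomato, by 1.61-fold (1.13 to 2.37), and more Sfrp2, by 1.94-fold (1.07 to 3.93), whereas Axin2 had a ratio of 0.90 (0.53 to 1.64), Nkd1 of 0.82 (0.61 to 1.11) and Lef1 of 1.38 (0.75 to 2.80). Among dorsal pallial progenitors (510 and 43 cells) Sfrp1 had a ratio of 1.06 (0.95 to 1.19), and Frzb was lower with YFP at 0.45 (0.24 to 0.91), on 12 UMIs in tdTomato cells. The tdTomato cells of the septal class were shallower, with a median of 10333 UMIs against 13467.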

How the data were processed

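The deposited files hold counts: per the file headers and the labels, the authors made them as UMIs per gene and cell barcode with Cell Ranger 2.1.1 (septal explants, with reporter sequences added) and Cell Ranger 7.1.0 (telencephalic vesicle), on mm10, per the submitters' processing notes. Whether intronic reads were counted is not given in the sources used here. Totals were 83103280 and 194821794 UMIs. The members and lists were chosen with earlier results of these data known. Following the study's methods, cells outside 3 median absolute deviations of the mitochondrial share were removed, and Scrublet as implemented in scanpy 1.11.5 marked doublets (60 cells, 1.10%, and 713 cells, 5.72%); its random seed was 0, since another seed marked few septal cells. UMI gates gave the classes (some gate and check genes are not reported here), and UMIs were summed over the cells of a class (numpy 2.4.6 and pandas 2.3.3 in Python 3.11.15; intervals with scipy 1.17.1). No embryo could be told apart, so no test was made. A 2-fold difference counted as called where both classes together held at least 50 UMIs. Genes most like a member were the 3 highest Pearson correlations of log2(CPM + 1) over classes, among genes with at least 500 UMIs. All 7 members were described, and other pathway genes were named among the 6 largest called differences of the hem comparison in either library. Ratios and intervals were tested on simulated data. Alternatives changed the filters, gates, axis thresholds, weighting and depth. Gene positions came from GENCODE M21.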

Additional observations from a re-analysis of the deposited data

Results flagged for a closer look

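The vesicle library had a LacZ sequence added to its gene list, which no comparison above uses, and it held 11 UMIs of it in 9 cells; the labels list these embryos as wild-type.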

How the results depend on the processing

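No paired analysis was possible because each condition has 1 pooled library. Counts of members at least 2-fold apart moved as follows. The share over all genes is not given for these alternative settings, so the changed counts have no background beside them. Antihem against dorsal pallial progenitors had 1 higher and 1 lower: higher members became 0 in thinned cells, with equal weight per cell, with gate minimums raised by 1 UMI and by whole clusters, and 2 with Dbx1 alone as the gate; lower members became 2 in thinned cells, with equal weight, at a minimum of 20 UMIs, with no minimum and with Dbx1 alone, 3 by whole clusters and 0 with an axis threshold of 0. Medial dorsal pallial progenitors of the vesicle had none higher, but 1 with equal weight, with cells of at least 2500 genes, with gates raised by 1 UMI, with at least 2 Wnt8b UMIs and by whole clusters, and 2 at 20 UMIs and with no minimum. With 20 UMIs or no minimum, lower members became 2 in vesicle septal (2 by whole clusters too; 1 above) and 4 in LGE-type progenitors (2 above). In the septal explants, lower members in the hem became 1 with raised gates or a gate of Wnt ligands and Lmx1a (2 above), higher members in septal progenitors 0 with an axis threshold of 0, higher members in neurons 1 by whole clusters, and higher members with YFP 4 at a reporter threshold of 3 UMIs (0 above). Among the neural classes of the vesicle 4 members were highest in the hem, and 2 by the share of cells with at least 2 UMIs. No share over all genes is given for this count, so it is not read as a result about the set. For Lef1 and Nkd1 the hem interval overlapped that of the next class. None of the counts above was reversed. The other 229 such values did not move, and of the single-gene ratios 341 did not and 41 did, all in the direction they had. The cause of these changes was not tested. Levels of Frzb and Dkk3 and all values of the 11 septal hem cells are limited by few UMIs.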
